A study of Mus musculus with 15 samples.

Results

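Endothelial cell genes were followed through RNA sequencing libraries of lung metastasis. The set held 10 genes chosen as general markers of the cells that line blood vessels: Pecam1, Cdh5, Kdr, Tek, Tie1, Cldn5, Egfl7, Emcn, Vwf and Ramp2. They were found by mapping the Ensembl identifiers of the files to mouse symbols on build GRCm38, they were 10 of the 54838 genes listed, and every one had reads in some library. The series held 15 libraries in 5 groups of 3. 4T1 cells in vivo were recovered from the lungs of BALB/c mice 7 days after injection into the tail vein, and 4T1 cells in vitro were the same mouse mammary carcinoma line grown in a dish. The other 3 groups were lung epithelial cells, whose titles name the surface protein EpCAM, sorted 7 days after 800000 4T1 cells that label their neighbours had been injected. These were niche cells labelled shSox9, niche cells, and cells of the distal lung, with 5 lungs pooled for each replicate. The sources used here give neither the age nor the genotype of the host mice, nor which cells received the hairpin against Sox9.

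Endothelial cells form the inner wall of every vessel, and in the lung they make up the dense capillary bed that lies against the alveolar epithelium. Kdr, the main receptor for the growth factor VEGF-A, and Tek, the receptor for angiopoietins that pairs with the related protein Tie1, govern vessel growth and rest. Cdh5, Cldn5 and Pecam1 hold neighbouring endothelial cells together, Emcn coats their surface, Egfl7 is secreted by them, Vwf is stored for clotting, and Ramp2 makes the receptor Calcrl respond to the vasodilator adrenomedullin. Neither a mammary carcinoma line nor a sorted alveolar epithelial cell is a textbook source of most of these transcripts.

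Libraries held 15907316 to 30421705 counts, and 3 counts of any one of them amounted to 0.104 to 0.212 CPM, the unit of counts per library size, here with TMM scaling. Sox9 itself stood at 81.3, 58.7 and 35.9 CPM in the libraries labelled shSox9 and at 59.6, 55.1 and 31.9 CPM in niche libraries, a log2 fold change of 0.26 (SE 0.27, edgeR adjusted p = 0.55), so that the label is used here only as a name. Markers of other cell types were present in the sorted epithelial libraries. Epcam averaged 27.2 ± 4.54 CPM in the libraries labelled shSox9, 54.2 ± 22.1 CPM in niche and 95.6 ± 10.2 CPM in distal epithelium (SD, n = 3 each). Col1a1, a collagen gene of fibroblasts, averaged 6165 ± 1657 CPM in the libraries labelled shSox9, 6321 ± 634 CPM in niche and 1239.7 ± 127 CPM in distal epithelium. Sftpc, the surfactant gene of alveolar type 2 cells, took 6.20% to 10.9% of all TPM in the libraries labelled shSox9, 1.74% to 2.24% in niche and 30.0% to 35.5% in distal epithelium. TPM (a share of transcripts, scaled for their length) of every other gene is lowered by such a share, so epithelial groups are compared below by CPM with TMM scaling, and TPM is used to set genes side by side. In bulk libraries, fewer endothelial cells and less RNA per endothelial cell cannot be told apart, and which cells held these transcripts was not measured.

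Egfl7 departed from the other 9 genes in the cancer cells, as described below, and it has 3 annotated start sites, so its promoters are shown with those of Emcn and Kdr. Sequences are from RefSeq on build GRCm38.p6 and run from 250 bases before to 50 bases after the start site. Capitals mark CCGGAAG or CAGGAAG on either strand, 2 forms of the site bound by ETS factors, the transcription factor family most closely tied to endothelial genes.
Egfl7 start 1, chr2:26580833-26581132 (+): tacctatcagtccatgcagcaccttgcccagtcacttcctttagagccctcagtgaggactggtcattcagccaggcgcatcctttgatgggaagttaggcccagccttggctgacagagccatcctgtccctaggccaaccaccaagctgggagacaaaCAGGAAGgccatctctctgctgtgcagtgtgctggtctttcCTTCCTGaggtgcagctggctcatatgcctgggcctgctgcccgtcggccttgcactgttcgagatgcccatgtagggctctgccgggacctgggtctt
Egfl7 start 2, chr2:26583615-26583914 (+): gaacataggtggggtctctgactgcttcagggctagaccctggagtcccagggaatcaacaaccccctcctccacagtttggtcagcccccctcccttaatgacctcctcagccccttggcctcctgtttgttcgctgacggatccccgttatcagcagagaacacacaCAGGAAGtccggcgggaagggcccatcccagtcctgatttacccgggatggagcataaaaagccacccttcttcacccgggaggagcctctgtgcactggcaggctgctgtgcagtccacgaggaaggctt
Egfl7 start 3, chr2:26586386-26586685 (+): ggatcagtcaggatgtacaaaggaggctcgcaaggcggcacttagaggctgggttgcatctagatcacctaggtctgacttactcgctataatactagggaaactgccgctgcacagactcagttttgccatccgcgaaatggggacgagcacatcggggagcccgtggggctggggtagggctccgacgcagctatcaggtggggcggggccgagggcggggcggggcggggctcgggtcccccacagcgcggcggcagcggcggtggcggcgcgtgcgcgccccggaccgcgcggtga
Emcn, chr3:137340828-137341127 (+): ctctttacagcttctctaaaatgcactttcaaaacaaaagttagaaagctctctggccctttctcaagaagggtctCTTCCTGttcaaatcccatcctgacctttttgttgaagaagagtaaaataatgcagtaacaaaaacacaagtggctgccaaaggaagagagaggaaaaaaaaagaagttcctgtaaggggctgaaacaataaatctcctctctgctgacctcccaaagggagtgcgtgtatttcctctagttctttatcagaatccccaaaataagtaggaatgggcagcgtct
Kdr, chr5:75978406-75978705 (-): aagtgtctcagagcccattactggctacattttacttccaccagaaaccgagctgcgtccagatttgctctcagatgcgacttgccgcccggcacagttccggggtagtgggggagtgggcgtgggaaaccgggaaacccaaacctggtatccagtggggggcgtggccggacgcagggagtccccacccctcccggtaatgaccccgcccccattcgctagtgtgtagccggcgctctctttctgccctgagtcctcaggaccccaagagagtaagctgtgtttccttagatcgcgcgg
Promoters of 6 of the 10 genes were found in the RefSeq table, 8 promoters in all, and 3 of the 8 held either motif. Among 32851 promoters of the same length, 8.86% held CCGGAAG, 13.3% held CAGGAAG and 20.9% held at least 1 of them. The 3 Egfl7 promoters differed in base composition. They held 5, 8 and 31 CpG dinucleotides in order of position, against a median of 7 over all promoters, and the third was richer in CpG than 89.4% of them. A match describes these letters only and is not a measured binding site, and which start site was used was not measured.

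Egfl7 also carries the microRNA miR-126 in its gene body, a regulator of vessel integrity. Its mature 3p strand is shown with its seed (bases 2 to 8) in capitals.
miR-126a-3p, chr2:26591402-26591423 (+): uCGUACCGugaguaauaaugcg
It lies inside Egfl7 (chr2:26580014-26593120, plus strand). These libraries counted gene transcripts, and the mature microRNA was not measured.

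In 4T1 cells recovered from the lung, 6 of the 10 genes were higher than in cultured 4T1 cells, 1 was lower, 1 did not pass the test and 2 were too low to be tested. Over all 14022 genes tested, 51% passed an edgeR adjusted p of 0.05, 27% as higher and 24% as lower. A gene that passed the filter on low counts only through its in vivo libraries had to differ, so the count of 6 is a description and no support in itself. Endothelial adhesion genes and growth factor receptors were near or at 0 in culture, while Egfl7 was among the transcripts the cultured cells already held. Among the 8 genes tested, groups did not overlap for the same 7, 6 higher and 1 lower. Over all genes, in vivo libraries lay wholly higher for 31.8% and wholly lower for 29%. Kdr, Tek and Cldn5, at 0 in every in vitro library, could not overlap once they had passed the filter. That count and the p-values of these genes are therefore descriptions as well. Mean TPM in vivo was below that of niche epithelium for every one of the 10.

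**Figure D1:**
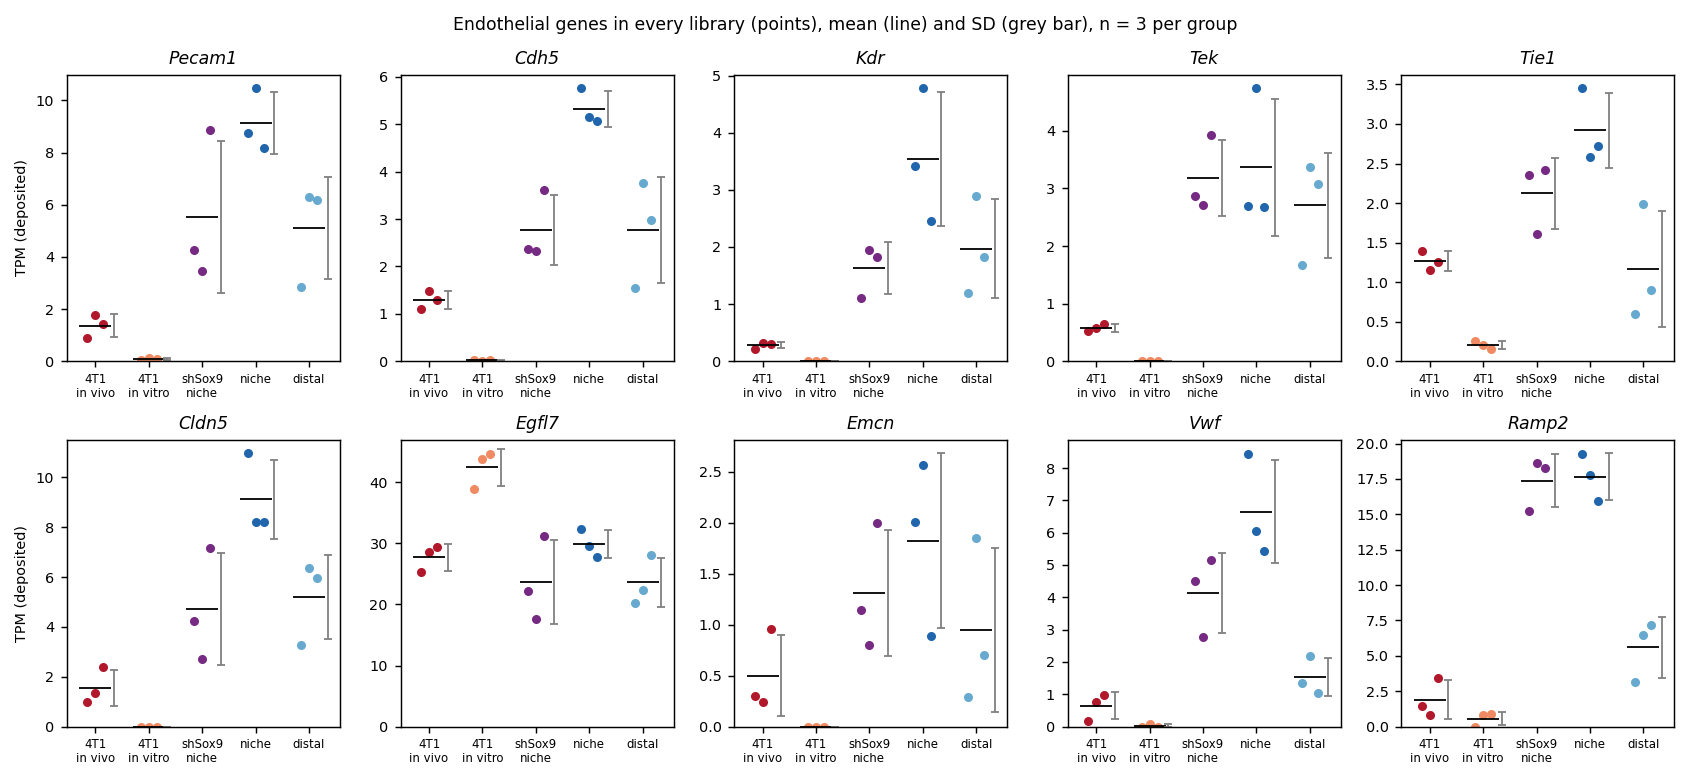
Deposited TPM of each endothelial gene in every library (points), with the group mean (line) and SD (bar), n = 3 per group; each panel has its own scale from 0. 4T1 cells in vitro sit below 1 TPM for 9 genes and between 38.98 and 44.59 TPM for Egfl7, and niche epithelium has the highest mean for the other 9.

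The VEGF and angiopoietin receptors Kdr and Tek were read in every in vivo library and in no in vitro library. Kdr (chr5:75932827-75978458, minus strand) had 0.22, 0.32 and 0.31 TPM in vivo, against 0 TPM in all 3 in vitro libraries. Tek (chr4:94739289-94874976, plus strand) had 0.52, 0.57 and 0.65 TPM in vivo, against 0 TPM in all 3 in vitro libraries. Values of both receptors were close together in vivo, and no groups overlapped. Summed over the libraries, Kdr had 65 counts in vivo and 0 in vitro, at least 26.6-fold higher when 3 counts over the whole group are taken as the floor (edgeR adjusted p = 0.000277). Tek had 102 counts in vivo and 0 in vitro, at least 41.7-fold higher (adjusted p = 0.000122). Tie1 (chr4:118471191-118490061, minus strand), which binds no angiopoietin by itself, differed from both in being read in culture. It had 1.40, 1.15 and 1.26 TPM in vivo, against 0.25, 0.20 and 0.15 TPM in vitro, groups that did not overlap. It rose by 2.59 in log2 (SE 0.31, edgeR adjusted p = 0.000143).

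The junction genes followed the receptors. Cdh5 (chr8:104101625-104144511, plus strand), the VE-cadherin of adherens junctions, had 1.10, 1.48 and 1.29 TPM in vivo, against 0.02, 0.01 and 0.02 TPM in vitro. Each in vitro value was a single read, so the ratio is given from counts, 197 against 3, as 80.5 (95% counting interval 27.1 to 394, edgeR adjusted p = 7.29e-06). Cldn5 (chr16:18776847-18778262, plus strand), the claudin of endothelial tight junctions, had 0.98, 1.34 and 2.37 TPM in vivo, against 0 TPM in all 3 in vitro libraries. That was 81 counts against 0, at least 33.1-fold higher (adjusted p = 0.000476). Pecam1 (chr11:106654217-106750628, minus strand), the adhesion molecule CD31, had 0.88, 1.76 and 1.44 TPM in vivo, against 0.04, 0.13 and 0.09 TPM in vitro, and rose by 4.38 (SE 0.51, adjusted p = 0.000135) on the log2 scale. For all 3 genes the lowest in vivo library was above the highest in vitro library, which the filter had fixed in advance. Leaving out any 1 library kept the calls of these 6 genes and of Egfl7.

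Egfl7 ran the other way. It was the most abundant of the 10 genes per unit length in every group, and in 4T1 cells it had 25.27, 28.56 and 29.42 TPM in vivo, against 38.98, 43.89 and 44.59 TPM in vitro. All 3 in vivo libraries were below all 3 in vitro libraries. Summed over the groups it had 931 counts in vivo and 1737 in vitro, a log2 fold change of -0.61 with an SE of 0.12 (edgeR adjusted p = 0.0019). Egfl7 alone made up 75.1% ± 4.55 of the summed TPM of the 10 genes in vivo and 98.0% ± 1.06 in vitro (SD, n = 3 each). In the epithelial groups that share was 35.4% ± 2.60 in the libraries labelled shSox9, 33.5% ± 1.47 in niche and 47.8% ± 8.62 in distal epithelium. Agpat2, a lipid synthesis gene on the opposite strand, shares 64 exonic bases with Egfl7, or 1.79% of its exons, and had 35.61 to 38 TPM in vivo and 64.11 to 74.42 TPM in vitro. No source used here gives the strand setting of the counting, and the part of Agpat2 reads in the Egfl7 values was not tested.

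The remaining 3 genes rested on few reads. Emcn (chr3:137341067-137432185, plus strand), the sialomucin endomucin, had 0.30, 0.24 and 0.96 TPM in vivo, against 0 TPM in all 3 in vitro libraries. Those were 17 counts against 0, at least 6.94-fold higher, and below the filter for testing. Vwf (chr6:125546774-125686679, plus strand), the clotting protein von Willebrand factor, had 0.18, 0.75 and 0.99 TPM in vivo, against 0, 0.08 and 0 TPM in vitro, and was also below the filter. Its 44 counts against 4 gave a ratio of 13.5 (95% counting interval 4.91 to 51.7), with replicate 1 in vivo holding 2 of the 44. Ramp2 (chr11:101246028-101259546, plus strand) had 1.47, 0.82 and 3.42 TPM in vivo, against 0, 0.81 and 0.88 TPM in vitro, and these groups overlapped. Its log2 fold change of 1.67 (SE 0.79, edgeR adjusted p = 0.10) did not pass. Ramp2 shares 1103 exonic bases, 33.4% of its exons, with Vps25 on the same strand, which had 120.24 to 131.66 TPM in vivo and 132.42 to 149.03 TPM in vitro, so low Ramp2 values rest on the authors' division of reads between the pair.

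Of 25 other pan-endothelial genes, 20 were tested, 18 were higher in vivo and none was lower, beside 27% of all genes tested that were higher and 24% that were lower. As with the 10 genes, a gene at or near 0 in culture passed the filter only through its in vivo libraries and had to differ, so this count is a description as well. Ptprb, the phosphatase that acts on Tek, had 153 counts in vivo and 0 in vitro, and Clec14a, Thbd and Acvrl1 had 146, 144 and 141 counts in vivo and 0 in vitro each. Flt1, the decoy VEGF receptor, was read in culture already, with 45.0 ± 4.89 CPM in vivo and 22.2 ± 2.55 CPM in vitro (log2 fold change 1.02, SE 0.12, edgeR adjusted p = 0.000168). Calcrl, the receptor that Ramp2 serves, had 5.78 ± 1.57 CPM in vivo and 0.127 ± 0.0462 CPM in vitro (5.45, SE 0.39, adjusted p = 7.80e-06). Of 13 endothelial transcription factors 6 were tested, 3 were higher and 1 was lower. Klf2, which responds to blood flow, had 97.3 ± 21.5 CPM in vivo and 7.03 ± 1.24 CPM in vitro (3.79, SE 0.19, adjusted p = 9.86e-07). Lmo2, a partner of haematopoietic and endothelial factors, rose by 3.81 (SE 0.64, adjusted p = 0.000942), and Fli1, an ETS factor, had 60 counts in vivo and 0 in vitro. Calcrl and Lmo2, at 0.127 and 0.0961 CPM in vitro, were tested only through their in vivo libraries, so their p-values are descriptions. Ets1, another ETS factor, fell by 0.53 on the log2 scale to 129 CPM in vivo, against 186 CPM in vitro (SE 0.12, adjusted p = 0.0046).

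Ligands of these receptors were mixed: of 16 ligands, coreceptors and partners, 15 were tested, 4 were higher in vivo and 6 lower. Over all genes tested, 27% were higher and 24% lower. Angpt2, the angiopoietin that competes at Tek, had 9.79 ± 0.973 CPM in vivo and 3.87 ± 0.0677 CPM in vitro (log2 fold change 1.34, SE 0.16, edgeR adjusted p = 0.000148). Angpt1, which activates Tek, rose by 2.41 (SE 0.30, adjusted p = 0.000205). Adm, the adrenomedullin gene, had 2.41 ± 0.545 CPM in vivo and 7.07 ± 5.41 CPM in vitro, and the groups overlapped. Its change of -1.54 (SE 0.49, adjusted p = 0.024) kept the call in 8 of 12 alternatives, with adjusted p up to 0.089. Among those that lost it were the fits without replicate 1 or 2 in vivo or replicate 1 in vitro, where it was -0.75. Vegfa (-0.49, adjusted p = 0.22) and the coreceptor Nrp1 (-0.33, adjusted p = 0.11) did not pass.

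Markers of other lung cells were also higher in the in vivo cancer cells. Of 12 leukocyte markers 9 were tested, 7 were higher and none lower, beside the same 27% and 24% of all genes. Those 7 include Cd53 and Laptm5, at 0 in vitro, and Ptprc, Cd52, Cd79a and Lyz2, at 0.0116 to 0.0961 CPM on average in vitro. All of these passed the filter only through the in vivo libraries and had to differ, so the count is a description. The summed level of the 12 markers was 75.4 to 611 CPM in vivo and 10.96 to 14.5 CPM in vitro. Lyz2, which alveolar type 2 cells also express, averaged 215 CPM of a mean sum of 272 CPM in vivo. Ptprc averaged 8.16 CPM in vivo, and Csf1r and Cd68 did not pass. No leukocyte marker was at 0 in all in vivo libraries, against 4 (Cd53, Laptm5, Cd3e and S100a9) in vitro. Of 12 fibroblast and mural markers 5 were tested and all 5 were higher, with summed levels of 31.0 to 34.2 CPM in vivo and 7.54 to 13.3 CPM in vitro. Among those 5, Col1a1, Col1a2, Col3a1 and Dcn averaged 0.435, 0.178, 0.0603 and 0.0151 CPM in vitro. They were tested because of their in vivo levels, so this count is a description too. Of 10 platelet and erythroid markers 3 were tested, 2 were higher and 1 lower, with summed levels of 2.95 to 3.98 CPM in vivo and 2.30 to 2.53 CPM in vitro. Of 12 epithelial markers 10 were tested, 5 were higher and 3 lower, with summed levels of 3631 to 4360 CPM in vivo and 3560 to 3910 CPM in vitro. The 5 higher were Krt8 and the alveolar genes Sftpc, Sftpa1, Sftpb and Ager, and the 3 lower were Epcam, Cdh1 and Aqp5. Sftpc averaged 61.4 CPM in vivo and 1.96 CPM in vitro, Sftpa1 9.94 and 0.171 CPM, and Ager 3.10 and 0.192 CPM. Sftpa1, Ager, Sftpb (0.0544 CPM in vitro) and the erythroid marker Hbb-bs (0.0162 CPM in vitro) were likewise tested because of their in vivo levels. Replicate 3 in vivo held the highest leukocyte sum and the highest level of 6 of the 10 endothelial genes. Pecam1, Cdh5 and Vwf were highest in replicate 2 and Tie1 in replicate 1. In replicates 1, 2 and 3 the 9 endothelial genes other than Egfl7 summed to 12.6, 16.1 and 19.0 CPM. Leukocyte sums there were 75.4, 131 and 611 CPM. The part of host cells in the endothelial values of the in vivo libraries was not tested.

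How much of each list the in vivo libraries held, relative to niche epithelium, was compared over genes below 1 TPM in culture, a limit chosen after values were seen and carrying no test. The 9 endothelial genes under that limit held 11.8%, 14.2% and 21.3% of the niche TPM in replicates 1, 2 and 3 in vivo, and 1.5% on average in vitro. Single genes ranged widely, with Tie1 at 43.5% ± 4.29 of its niche TPM, Cdh5 at 24.2% ± 3.57, Vwf at 9.63% ± 6.26 and Kdr at 7.99% ± 1.55 (SD, n = 3 each). Egfl7, above the limit in culture, stood at 92.8% ± 7.33. The 20 other pan-endothelial genes under the limit came to 6.60% to 11.7%, and 10 endothelial transcription factors to 5.73% to 9.41%. Leukocyte markers came to 1.87%, 3.51% and 15.8%, platelet and erythroid markers to 4.80% to 6.35%, and fibroblast and mural markers to 0.140% to 0.199%. These percentages depend on the niche level of each list and on the limit. The median gene stood at 17.1% among the 9 endothelial genes and at 25.1% among 9 platelet and erythroid markers, and their percentages of summed TPM stood in the other order. Artery, vein and lymphatic genes came to 1.59% to 3.05%, and genes of lung capillary subtypes to 3.42%, 3.80% and 16.4%.

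**Figure D2:**
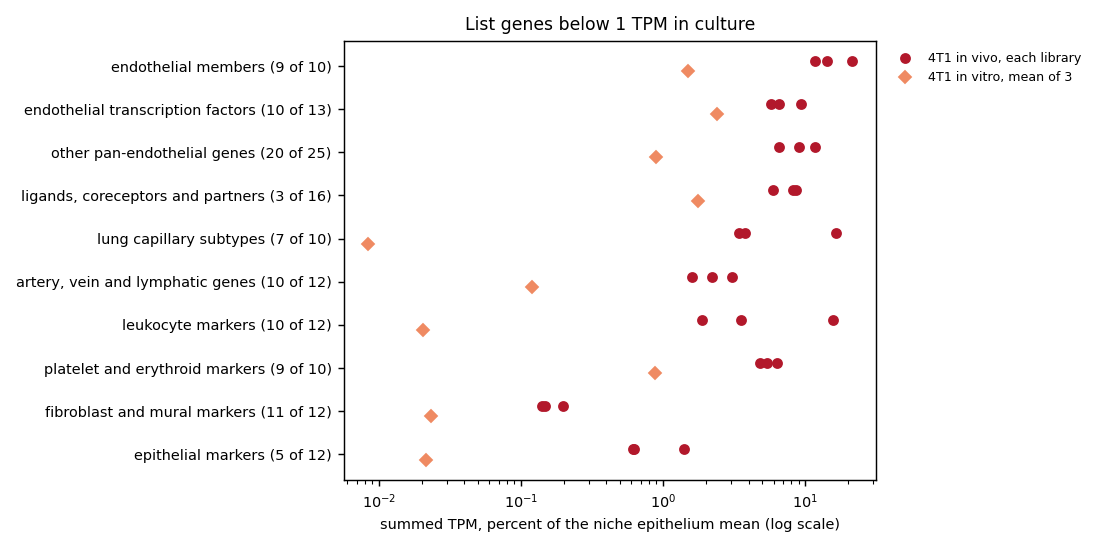
Summed TPM of list genes below 1 TPM in culture, as a percent of their mean in niche epithelium, on a log scale; circles are the 3 libraries of 4T1 cells in vivo, diamonds the mean of 3 libraries in vitro, and labels give how many genes of each list are included. The endothelial set lies at 11.8% to 21.3% in vivo, the fibroblast and mural markers at 0.140% to 0.199%.

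Between niche and distal epithelium, only Ramp2 of the 10 genes passed the test, and it was higher in the niche. Over all 17640 genes tested in the epithelial fit, 54.3% passed, 28.5% as higher and 25.8% as lower, so that 1 of 10 was below the background. Ramp2 had 10.2, 10.7 and 9.83 CPM in niche epithelium, against 3.34, 5.25 and 7.21 CPM in distal epithelium. The niche libraries lay close together and above every distal library. Ramp2 rose by 0.97 in log2 (SE 0.26, edgeR adjusted p = 0.0082), and it passed under every alternative run, with adjusted p of 0.00022 to 0.027. Vps25, with which it shares exonic sequence, had 143.48 to 149.03 TPM in niche and 102.01 to 110.47 TPM in distal epithelium. Those TPM do not compare the groups, since Sftpc took 30.0% to 35.5% of TPM in distal epithelium and 1.74% to 2.24% in niche. The part of shared reads in the Ramp2 difference was not tested. Calcrl, its receptor partner, had 40.1 ± 6.67 CPM in niche and 25.4 ± 10.1 CPM in distal epithelium and did not pass (0.66, SE 0.29, adjusted p = 0.070).

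No junction gene passed. Cdh5 had 12.3, 12.3 and 12.6 CPM in niche, against 5.93, 11.6 and 10.95 CPM in distal epithelium, so that the groups did not overlap, yet the log2 fold change of 0.39 (SE 0.27, edgeR adjusted p = 0.25) did not pass. Groups that did not overlap with the niche higher were found for 2 of the 10 genes, Cdh5 and Ramp2, against 33.8% of all genes. Pecam1 had 16.5, 19.1 and 16.1 CPM in niche, against 8.71, 16.4 and 17.1 CPM in distal epithelium, and Cldn5 had 8.84, 6.65 and 6.94 CPM, against 4.26, 7.36 and 7.42 CPM. Their groups overlapped, with changes of 0.29 (SE 0.37, adjusted p = 0.52) and 0.24 (SE 0.35, adjusted p = 0.59). Taken 2 SE either side, the changes reached -0.44 to 1.03 for Pecam1 and -0.47 to 0.95 for Cldn5.

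Receptors did not pass either. Kdr had 12.1, 17.0 and 9.11 CPM in niche, against 6.80, 14.8 and 9.75 CPM in distal epithelium (log2 fold change 0.29, SE 0.32, edgeR adjusted p = 0.47). Tek had 7.31, 13.1 and 7.72 CPM in niche, against 7.41, 13.02 and 12.9 CPM in distal epithelium (-0.24, SE 0.30, adjusted p = 0.52). The groups of both genes overlapped. Tie1 had 8.25, 6.30 and 6.94 CPM in niche, against 2.35, 6.95 and 3.39 CPM in distal epithelium. Replicate 2 of the distal group was inside the niche range, and the change of 0.76 (SE 0.35, adjusted p = 0.090) passed without that library, at 1.32. Over the alternatives the adjusted p of Tie1 ran from 0.0051 to 0.28.

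Among the rest, Egfl7 had 19.4, 19.6 and 18.1 CPM in niche, against 19.1, 19.2 and 26.8 CPM in distal epithelium (log2 fold change -0.19, SE 0.23, edgeR adjusted p = 0.52). Emcn had 1.74, 1.999 and 0.784 CPM in niche, against 0.494, 1.5 and 0.707 CPM in distal epithelium (0.76, SE 0.53, adjusted p = 0.24). Both pairs of groups overlapped, and Emcn was the least abundant of the 10 per unit length in all 3 epithelial groups. The median log2 fold change over the 10 genes was 0.34, beside 0.02 over all genes tested.

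**Figure D3:**
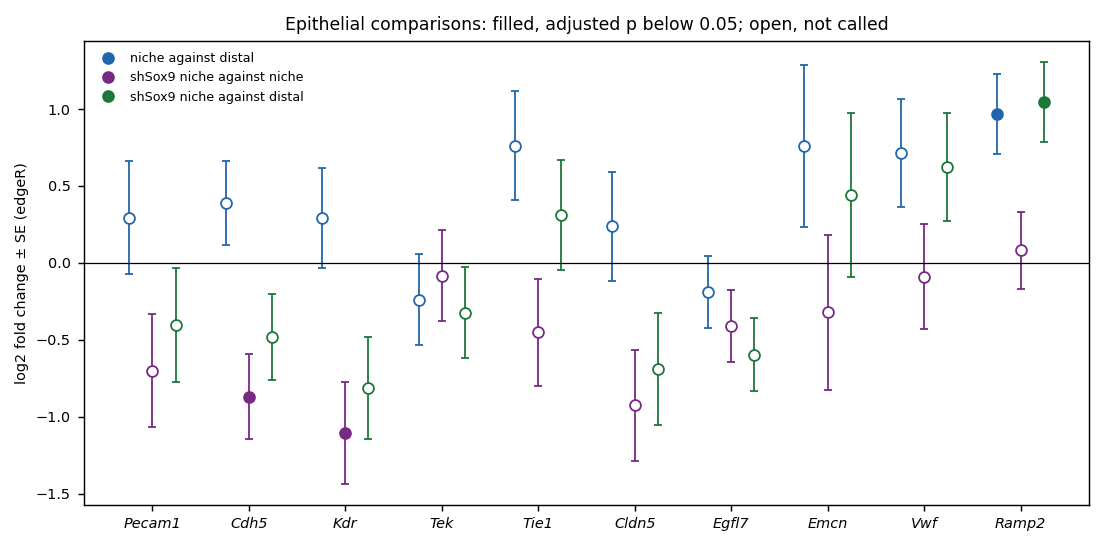
Log2 fold changes of the 10 endothelial genes with their SE (edgeR, 9 libraries) for niche against distal, niche labelled shSox9 against niche, and niche labelled shSox9 against distal; filled points passed an adjusted p of 0.05. Ramp2 is filled in both comparisons with distal epithelium (0.97 and 1.05), and Cdh5 and Kdr are filled in the comparison within the niche (-0.87 and -1.11).

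Vwf passed in TPM and not in CPM, where the test differed too. In CPM it had 7.02, 4.69 and 3.86 in niche, against 3.15, 4.23 and 2.12 in distal epithelium, with a log2 fold change of 0.72 (SE 0.35, edgeR adjusted p = 0.11) and overlapping groups. In TPM it had 8.45, 6.05 and 5.43 in niche, against 1.36, 2.19 and 1.05 in distal epithelium, and the groups did not overlap. The limma test on log2(TPM + 0.1) gave 2.08 (adjusted p = 0.00027). The mean transcript length that the authors' tables give for Vwf was 1204 to 1455 bases in niche, 1741 to 2173 bases in the libraries labelled shSox9 and 2240 to 2455 bases in distal epithelium. The longest of its 11 annotated transcripts has 8834 bases. The assigned transcripts were therefore on average shorter in every niche library than in every distal one, and both the length and the Sftpc share enter TPM. Whether the length differs in the cells was not tested, since the files hold no reads per transcript.

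**Figure D4:**
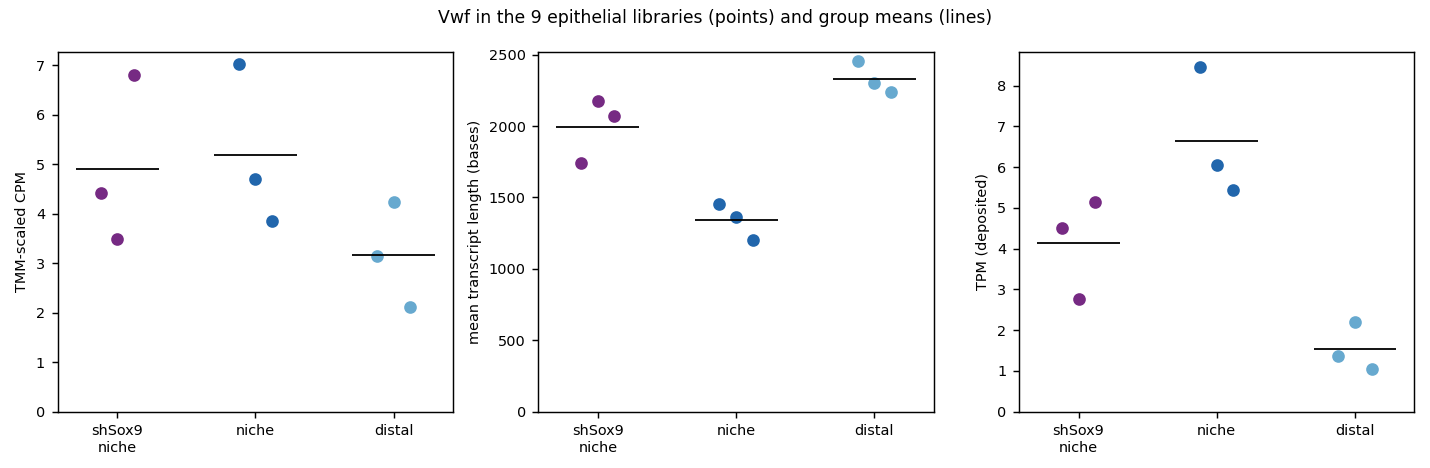
Vwf in the 9 epithelial libraries (points) with group means (lines): CPM with TMM scaling, the mean transcript length in bases, and deposited TPM. Lengths of 1204 to 1455 bases in niche libraries lie below the 2240 to 2455 bases of distal libraries, and TPM separates those groups where CPM does not.

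Endothelial genes outside the set were split between niche and distal epithelium. Of 25 other pan-endothelial genes 10 were higher in the niche and 4 lower, beside 28.5% of all genes tested as higher and 25.8% as lower. Ecscr, an endothelial surface protein, rose by 2.66 (SE 0.18, edgeR adjusted p = 7.58e-07), and Selp, P-selectin of endothelium and platelets, by 1.96 (SE 0.59, adjusted p = 0.014). The Selp call was lost without replicate 1 of the distal group, with adjusted p of 0.00011 to 0.062 over the alternatives. Esam, a junction protein, and Adgrf5, a receptor that alveolar type 2 cells also express, were lower in the niche, with changes of -2.89 (SE 0.14, adjusted p = 1.04e-07) and -2.81 (SE 0.16, adjusted p = 2.25e-07). Flt1 had 16.2 ± 5.01 CPM in niche and 4.48 ± 1.39 CPM in distal epithelium (1.86, SE 0.35, adjusted p = 0.000883). Of 12 endothelial transcription factors tested (13 listed), 6 were higher and none lower, among them Lmo2 at 1.77 (SE 0.18, adjusted p = 1.30e-05) and Foxf1, a lung mesenchymal and capillary factor, at 1.03 (SE 0.15, adjusted p = 0.000121). Bcl6b at 1.51 (adjusted p = 0.021) and Erg at 1.08 (adjusted p = 0.027) also passed, and each lost the call without some libraries: Bcl6b without niche replicate 2 or distal replicate 1 or 3, Erg without niche replicate 3 or distal replicate 2 or 3, and with no filter on low counts.

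Of 16 ligands, coreceptors and partners, 6 were higher in the niche and 7 lower. Over all genes tested, 28.5% were higher and 25.8% lower, the shares to set beside each list in this paragraph. Vegfa, the ligand of Kdr, which alveolar epithelium is known to supply to capillaries, had 18.5 ± 3.24 CPM in niche and 60.4 ± 7.49 CPM in distal epithelium (log2 fold change -1.71, SE 0.15, edgeR adjusted p = 3.51e-06). Angpt2 had 6.98 ± 0.603 CPM in niche and 21.1 ± 3.18 CPM in distal epithelium (-1.60, SE 0.18, adjusted p = 2.26e-05), and Nrp1 changed by -0.82 (SE 0.14, adjusted p = 0.00040). Adm (-0.57, adjusted p = 0.027) and Angpt1 (-0.44, adjusted p = 0.049) passed in CPM and turned to 0.011 and 0.17 in TPM, where neither passed, and the call of Nrp1 was lost in TPM too (-0.25). The call of Adm was also lost without niche replicate 1 or 2 or distal replicate 2, and that of Angpt1 without any 1 niche replicate or distal replicate 1 or 2. Other cell types moved as well between these groups. Leukocyte markers were higher for 8 of 12 genes and lower for 3 in the niche, with Ptprc at 179 to 210.0 CPM, against 59.9 to 108 CPM in distal epithelium. Their summed level was 3476 to 4487 CPM in niche and 10054 to 13429 CPM in distal epithelium, most of it Lyz2, which alveolar type 2 cells also express. Fibroblast and mural markers were higher for 6 of 12 and lower for 2, summed at 11912 to 13633 CPM in niche and 3546 to 4103 CPM in distal epithelium. Epithelial markers were higher for 1 of 12 and lower for 10, summed at 9651 to 12542 CPM in niche and 216403 to 287500 CPM in distal epithelium. No marker of these 3 lists was at 0 in all libraries of either group, and the part of these cells in the endothelial values was not tested. Platelet and erythroid markers summed to 34.8 to 48.6 CPM in niche and 10.7 to 14.8 CPM in distal epithelium. Of 4 tested Pf4, platelet factor 4, alone was higher, with a log2 fold change of 2.22 (SE 0.40, edgeR adjusted p = 0.000684), and Gp6 was at 0 in every distal library. Pf4 averaged 31.7 CPM of a mean sum of 40.4 CPM in niche, and 6.77 of 13.2 CPM in distal epithelium. The platelet gene Itga2b (-0.24) and the erythroid genes Hba-a1 (0.47) and Hbb-bs (0.94) did not pass. Platelets also hold Vwf and Selp, and their part in those values was not tested.

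Within the niche, Cdh5 and Kdr were lower in the libraries labelled shSox9, and none of the 10 genes was higher. Over all genes 20.5% passed in this comparison, 9.68% as higher and 10.8% as lower, so that 2 of 10 lay near the background. Kdr had 3.86, 6.89 and 7.06 CPM in the libraries labelled shSox9, against 12.1, 17.0 and 9.11 CPM in niche libraries. Cdh5 had 5.504, 5.49 and 9.40 CPM in the libraries labelled shSox9, against 12.3, 12.3 and 12.6 CPM in niche libraries. Neither pair of groups overlapped. The log2 fold changes were -1.11 for Kdr (SE 0.33, edgeR adjusted p = 0.035) and -0.87 for Cdh5 (SE 0.27, adjusted p = 0.044). Both calls were close to the threshold. That of Cdh5 was lost without replicate 1 or 2 of the shSox9 group or without any 1 niche replicate, and that of Kdr without any 1 shSox9 replicate or without niche replicate 1 or 2. Over all alternatives the adjusted p ran from 0.00076 to 0.15 for Kdr and from 0.0059 to 0.14 for Cdh5, always with lower levels under the label. In deposited TPM, 0 of the 10 genes passed.

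Non-overlapping groups with the shSox9 libraries lower were found for 4 genes, Cdh5, Kdr, Cldn5 and Tie1, against 19.8% of all genes. Cldn5 had 3.34, 2.19 and 6.32 CPM in the libraries labelled shSox9, against 8.84, 6.65 and 6.94 CPM in niche libraries (log2 fold change -0.93, SE 0.36, edgeR adjusted p = 0.093). Tie1 had 5.60, 3.91 and 6.21 CPM in the libraries labelled shSox9, against 8.25, 6.30 and 6.94 CPM in niche libraries (-0.45, SE 0.35, adjusted p = 0.40). Pecam1 had 7.39, 6.29 and 18.3 CPM in the libraries labelled shSox9, against 16.5, 19.1 and 16.1 CPM in niche libraries (-0.70, SE 0.37, adjusted p = 0.21). Its replicates 1 and 2 were below every niche library while replicate 3 was among them. Egfl7 was likewise below every niche library in replicates 1 and 2 and above them in replicate 3, with 12.1, 10.4 and 20.6 CPM in the libraries labelled shSox9, against 19.4, 19.6 and 18.1 CPM in niche libraries (-0.41, adjusted p = 0.25). Without replicate 3 of the shSox9 group, Pecam1, Egfl7, Cdh5 and Cldn5 passed, all lower.

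The other 4 genes lay closest to 0. Tek had 7.67, 7.36 and 11.6 CPM in the libraries labelled shSox9, against 7.31, 13.1 and 7.72 CPM in niche libraries (log2 fold change -0.08, SE 0.29, 2 SE either side -0.67 to 0.50). Vwf had 4.42, 3.49 and 6.80 CPM in the libraries labelled shSox9, against 7.02, 4.69 and 3.86 CPM in niche libraries (-0.09, SE 0.34, 2 SE either side -0.77 to 0.59). Ramp2 had 8.61, 11.1 and 12.9 CPM in the libraries labelled shSox9, against 10.2, 10.7 and 9.83 CPM in niche libraries (0.08, SE 0.25, 2 SE either side -0.42 to 0.58). All 3 pairs of groups overlapped, and a p that misses the threshold does not show that levels were alike. Emcn had 1.08, 0.838 and 1.75 CPM in the libraries labelled shSox9, against 1.74, 1.999 and 0.784 CPM in niche libraries (-0.32, SE 0.50), also overlapping. The median log2 fold change over the 10 genes was -0.43, beside 0.02 over all genes.

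Of the other endothelial genes, 3 of 25 pan-endothelial genes were higher under the shSox9 label and 3 lower. Of 12 transcription factors tested none was higher and 2 were lower. Over all genes tested, 9.68% passed as higher and 10.8% as lower, the shares to set beside each list in this paragraph. The pan-endothelial counts lay near those shares. Cd93 (log2 fold change -1.51, SE 0.20, edgeR adjusted p = 0.00050), Icam2 (-1.40, SE 0.33, adjusted p = 0.012), Lmo2 (-1.77, SE 0.18, adjusted p = 0.000144) and Fli1 (-1.05, SE 0.20, adjusted p = 0.0035) were lower, and all 4 are also expressed by blood cells. Esam rose by 0.74 (SE 0.14, adjusted p = 0.0039) and Adgrf5 by 0.63 (SE 0.16, adjusted p = 0.015). Among ligands and coreceptors 5 of 16 were higher and none lower, with Angpt1 at 0.82 (SE 0.17, adjusted p = 0.0069), Adm at 0.81 (SE 0.19, adjusted p = 0.012), Angpt2 at 0.73 (SE 0.18, adjusted p = 0.014) and Nrp1 at 0.61 (SE 0.14, adjusted p = 0.0096). The Adgrf5 call was lost without shSox9 replicate 2 or niche replicate 3 and in TPM, that of Adm without niche replicate 2, and that of Angpt2 without shSox9 replicate 3 or niche replicate 1 or 2. Leukocyte markers were higher for 1 of 12 and lower for 8 in these libraries, at summed levels of 1813 to 2539 CPM against 3476 to 4487 CPM in niche libraries, and Ptprc was at 29.5 to 69.4 CPM, against 179 to 210.0 CPM. Platelet and erythroid markers summed to 7.22 to 18.5 CPM, against 34.8 to 48.6 CPM, and 1 of 4 tested was lower. That was Pf4, at 4.14 CPM against 31.7 CPM on average (-2.93, SE 0.41). Itga2b (0.47), Hba-a1 (-0.43) and Hbb-bs (-0.38) did not pass. Epithelial markers were higher for 6 of 12 and lower for 1, and fibroblast and mural markers higher for 3 of 12 and lower for 1. The part of these cells in the Cdh5 and Kdr values was not tested.

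Against distal epithelium, the libraries labelled shSox9 were higher in Ramp2 alone among the 10 genes, where 43.8% of all genes passed, 21.7% as higher and 22% as lower. Ramp2 had 8.61, 11.1 and 12.9 CPM in the libraries labelled shSox9, against 3.34, 5.25 and 7.21 CPM in distal epithelium. The groups did not overlap, against 25.8% of all genes that separated in this direction, and Ramp2 rose by 1.05 in log2 (SE 0.26, edgeR adjusted p = 0.0068). This comparison shares its distal libraries with the niche comparison and its shSox9 libraries with the comparison within the niche. Kdr (-0.81, SE 0.33, adjusted p = 0.068) and Egfl7 (-0.60, SE 0.24, adjusted p = 0.060) missed the threshold on the lower side, as did Cldn5 (-0.69, adjusted p = 0.15), Cdh5 (-0.48, adjusted p = 0.18), Pecam1 (-0.41, adjusted p = 0.41) and Tek (-0.32, adjusted p = 0.41). Vwf (0.63), Emcn (0.44) and Tie1 (0.31) did not pass on the higher side. Without replicate 3 of the shSox9 group 5 genes passed, Ramp2 higher and Pecam1, Egfl7, Cdh5 and Cldn5 lower. Without distal replicate 1, Ramp2, Cdh5 and Kdr passed, and without distal replicate 2, Ramp2 and Tie1. The median log2 fold change over the 10 genes was -0.37, beside -0.0047 over all genes. Of 25 other pan-endothelial genes 6 were higher and 2 lower, with Selp at 2.85 (SE 0.58, adjusted p = 0.0022; 1.81 without shSox9 replicate 1) and Ecscr at 2.25 (SE 0.18, adjusted p = 4.39e-06), and of 12 transcription factors 4 were higher and none lower. Markers of other cell types moved here as well. Epithelial markers were higher for 1 of 12 and lower for 10, summed at 31846 to 57526 CPM in the libraries labelled shSox9 and 216403 to 287500 CPM in distal epithelium. Fibroblast and mural markers were higher for 6 of 12 and lower for 1, summed at 9920.4 to 16056 CPM in the libraries labelled shSox9 and 3546 to 4103 CPM in distal epithelium. Leukocyte markers were higher for none of 12 and lower for 4, summed at 1813 to 2539 CPM in the libraries labelled shSox9 and 10054 to 13429 CPM in distal epithelium. Lyz2 averaged 1893 CPM of a mean sum of 2233 CPM under the label, and 11507 of 11934 CPM in distal epithelium. None of 4 platelet and erythroid markers tested passed, at summed levels of 7.22 to 18.5 CPM in the libraries labelled shSox9 and 10.7 to 14.8 CPM in distal epithelium. The part of these cells in the Ramp2 values was not tested.

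The spread between replicates was shared by most of the 10 genes. Replicate 3 of the shSox9 group had the highest level of all 10 genes in its group, with a summed level of 100.9 CPM, against 59.6 and 58.0 CPM in replicates 1 and 2. Replicate 1 of the distal group had the lowest level of 9 of the 10, with a summed level of 61.5 CPM, against 100.3 and 98.4 CPM in replicates 2 and 3. Niche libraries summed to 104, 112 and 92.0 CPM. The exception in distal replicate 1 was Vwf, at 3.15 CPM, against 2.12 CPM in distal replicate 3, and Egfl7 stood at 19.1 CPM there, against 19.2 CPM in distal replicate 2.

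**Figure D5:**
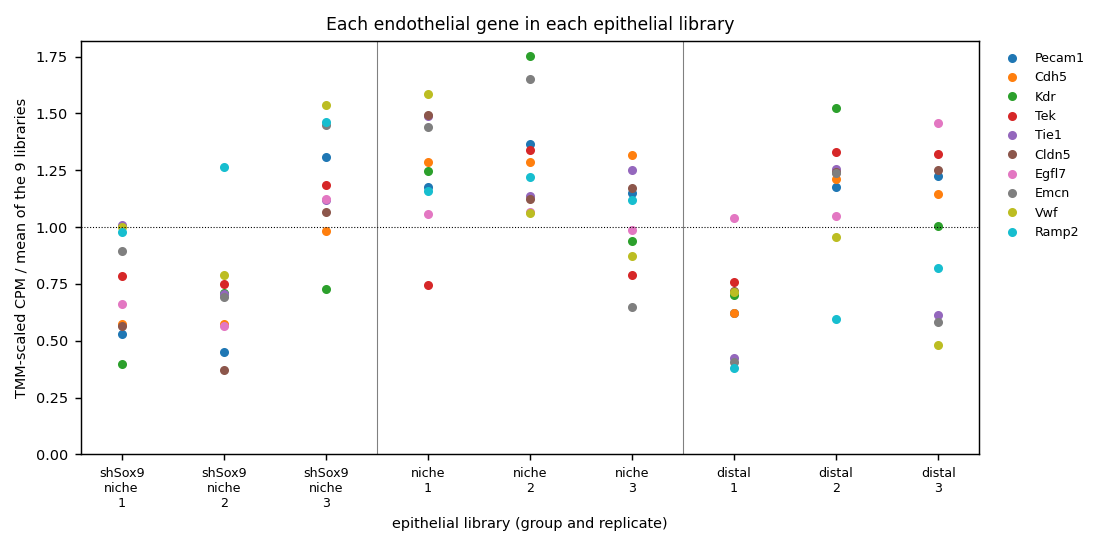
Level of each endothelial gene in each of the 9 epithelial libraries, as CPM with TMM scaling divided by that gene's mean over the 9 libraries (dotted line at 1). Points of replicate 3 of the shSox9 group lie above those of its replicates 1 and 2 for all 10 genes, and those of distal replicate 1 are the lowest of their group for 9.

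Genes outside the set whose levels ran closest to it over the 9 epithelial libraries were ranked by Pearson's r with the mean standardised log2 level of the 10 genes, among 15433 genes. The 10 highest were Ptprb (0.91), Coq2 (0.91), Clcc1 (0.90), Gpihbp1 (0.90), Adgrl4 (0.89), Chchd5 (0.89), B9d2 (0.89), Calcrl (0.89), Adcy4 (0.88) and Prx (0.87). Ptprb, Adgrl4 and Calcrl are on the list of other pan-endothelial genes and Gpihbp1, the capillary anchor of lipoprotein lipase, on that of lung capillary subtypes. Over all 15 libraries the 10 highest ran from Gpihbp1 (0.99) to Fli1 (0.98), with Clec1a, Hpgd, Adcy4, Icam2, Clec14a, Acer2, Il16 and Ackr2 between them. These values describe libraries that share depth, sorting and sequencing, and over all 15 libraries they mainly separate epithelial from cancer cell libraries. Egfl7, itself 1 of the 10, had an r of 0.04 with the set over the 15 libraries. Over the 9 epithelial libraries its r was 0.61, and those of the other members ran from 0.41 for Ramp2 and 0.52 for Vwf to 0.94 for Pecam1. Each member enters the mean it is compared with.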

How the data were processed

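RNA sequencing had been run on 15 mouse libraries. Each deposited table holds one library, made by the authors with RSEM on build GRCm38, per the submitters' processing notes, which also name DESeq2 and no versions. No source used here gives the aligner, annotation release or strand setting. Deposited expected counts divide reads shared between genes and were rounded to whole numbers for testing. The deposited TPM are scaled by the authors for transcript length. The deposited FPKM were not used. Of 54838 identifiers 54809 matched GENCODE M21, whose coordinates (1-based) are used.

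Counts were tested with edgeR 4.0.16 in R 4.3.3 (quasi-likelihood F-test, two-sided, TMM scaling, filterByExpr, Benjamini-Hochberg adjustment over all genes tested, threshold 0.05), with one fit for the 6 cancer cell libraries and one for the 9 epithelial libraries. Alternatives used DESeq2 1.42.0, limma 3.58.1 on log2(TPM + 0.1), no filter, a replicate block, other sets of libraries, and each library left out. Only the edgeR procedure was tested on simulated data, for 4T1 cells in vivo against in vitro and for niche against distal epithelium. Each SE is the log2 fold change divided by the square root of its F statistic. Bounds against a group at 0 use a floor of 3 counts over the group, and 95% count intervals cover counting error only. The chi-square per degree of freedom between replicates was 8.27 to 43.4, and each library was kept as a sample. Nothing states separate cultures or animals for 4T1 replicates, and p-values there cover only the spread of these libraries, which may be technical.

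The 10 genes and the comparison lists were chosen with earlier results of these data known. Genes named from a list are the called ones with the largest change (up to 4, at least 1 CPM), plus Vegfa, Angpt1, Angpt2, Adm, Flt1, Calcrl and Nrp1.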

Additional observations from a re-analysis of the deposited data

How the results depend on the processing

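Counts of the 10 endothelial genes that passed were as follows. For 4T1 cells in vivo against in vitro, 7 passed, 7 to 8 with each library left out, and 10 with no filter or with all 15 libraries in one fit, where Emcn, Vwf and Ramp2 were added as higher. For niche against distal epithelium, 1 passed, against 2 with no filter, 4 in deposited TPM (Ramp2, Vwf, Cdh5 and Tie1) and 1 to 2 with each library left out. For shSox9-labelled niche against niche libraries, 2 passed, against 4 with no filter (Pecam1 and Cldn5 added), 0 in TPM and 0 to 4 with each library left out. For shSox9-labelled niche against distal epithelium, 1 passed, against 3 with DESeq2 or with no filter (Egfl7 and Kdr added, lower), 2 in TPM and 1 to 5 with each library left out. The replicate block gave 7, 1, 2 and 3 in the same order. Same-numbered libraries correlated at -0.052 to 0.107 in their deviations from the group means. For shSox9-labelled niche against niche libraries they correlated at 0.107, 0.076 and 0.078, and differently numbered ones at -0.085 to -0.002. The letters were not taken to pair samples, and a weak pairing within the niche remains possible. With the replicate block Cdh5 and Kdr passed there, both lower.

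Changes that turned had not passed, apart from Adm (0.011) and Angpt1 (0.17) in TPM for niche against distal epithelium and Angpt2 below. In TPM, Tek (0.31) and Egfl7 (0.35) turned for niche against distal epithelium, Ramp2 (-0.026) within the niche, and Pecam1 (0.077), Cdh5 (0.059), Tek (0.26), Angpt2 (0.056) and Nrp1 (0.34) for shSox9-labelled niche against distal epithelium. Nrp1 passed there in the opposite direction (limma adjusted p = 0.024), against -0.21 in CPM (edgeR adjusted p = 0.23). With 1 library left out, changes within the niche ran from one sign to the other for Tek (-0.33 to 0.24), Vwf (-0.40 to 0.19), Flt1 (-0.52 to 0.19) and Ramp2 (-0.060 to 0.22), and so did Calcrl in shSox9-labelled niche against distal epithelium (-0.052 to 0.45). The cause was not tested, beyond the Sftpc share and Vwf length that enter TPM. Low counts kept Emcn (17 in vivo, 0 in vitro) and Vwf (44 in vivo, 4 in vitro) below the filter in the cancer cells.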
